A study of Danio rerio with 36 samples.

Results

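Bisphenol A (BPA) raised 58 zebrafish genes at its highest concentration that tetrabromobisphenol A (TBBPA), the brominated derivative of BPA, left near their control level at its own highest concentration. The 58 genes were chosen by their measured values, from 25856 genes in the BPA series, of which 25531 were also in the TBBPA series. At 48.3 µM BPA, log2(value + 1) had to lie above that of the carrier control (CC) by at least 2.5-fold in each of the 3 replicate pairs, which 332 genes did. A mean of at least 20 in the CC left 112 genes, and a mean log2 change smaller than 0.3 in either direction at 2.92 µM TBBPA left 64. Identifiers named in the selection then removed 6 genes, ppp1r15a, prdx1, JUNB, JUN, gstp1.2 and 1 of the genes named ARRDC3 (ENSDARG00000036028), and left 58. Of the 112 genes, 47 had a TBBPA change of 0.3 or more and 1 had a change of −0.3 or less. The changes at 48.3 µM BPA and at 2.92 µM TBBPA are therefore given as descriptions, and for these genes tests were made only at the concentrations that the selection did not use.

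The RNA came from whole AB/Tub larvae, pooled 20 to a sample, which were exposed for 48 h, from 72 to 120 hpf. BPA was given at 0.00483, 0.0483, 0.483, 4.83 and 48.3 µM and TBBPA at 0.000292, 0.00292, 0.0292, 0.292 and 2.92 µM, and each chemical had its own CC, with 3 replicates in every group. The labels of the control samples name the test chemical beside the carrier share of 0.5%, while the methods name DMSO, and the CC was taken to be DMSO. The highest concentrations are the study's EC20 values, only larvae with a normal appearance were pooled, and the replicates used different clutches. The doses of the 2 chemicals differ, so that their values are given side by side and no difference in potency is read from them. In pools of whole larvae, fewer cells of a type and less RNA per cell cannot be told apart. Values are gene counts divided by a size factor, called normalized counts here, and differences were taken after log2(value + 1), where genes with low counts appear less changed than they are. The BPA libraries held 6056692 to 16520859 reads assigned to genes and the TBBPA libraries 7865327 to 11478099.

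BPA is a building block of polycarbonate plastics and epoxy resins, and TBBPA is used as a flame retardant. Animal cells meet chemical stress with a few conserved programs. Oxidants and electrophiles activate the transcription factor Nrf2, which induces glutathione enzymes. A shortage of amino acids or unfolded protein in the endoplasmic reticulum activates Atf4, and low oxygen stabilizes Hif, whose targets include genes of glycolysis, collagen hydroxylation and vessel tone.

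Across the 58 genes, the mean change at 48.3 µM BPA ran from 2.68-fold to 19.9-fold with a median of 3.96-fold, and 28 genes changed by at least 4-fold. The CC means ran from 20.8 to 4767, with a median of 64.9, and 39 genes lay under 100. Each of the 58 genes had its 3 values at 48.3 µM above all 12 values at the lower concentrations. Over all genes tested this held for 9.36%, and since the 48.3 µM libraries chose the genes, nothing is read from the count. In the fit across all genes, 58 of 58 were called higher at 48.3 µM BPA, where 7.07% of the 17248 genes tested were called higher and 6.93% lower, a count that the selection fixed in the same way. A gene was called where limma gave a change of at least 1.5-fold and a p-value under 0.05 after Benjamini-Hochberg (BH) adjustment. At 2.92 µM TBBPA, 0 of the 58 genes were called in either direction by limma, edgeR or DESeq2, where 0.658% of 18400 genes were called higher and 0.201% lower, and this too follows from the selection. With limma, 6 of the 58 were higher and 1 was lower there at an unadjusted p-value under 0.05, with edgeR 7 and 1, and with DESeq2 3 and 1. Over all genes tested, 19.75% had such a p-value in either direction with limma, 19.61% with edgeR and 12.17% with DESeq2. Nothing is read from these counts, since the selection used the same libraries.

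**Figure D1:**
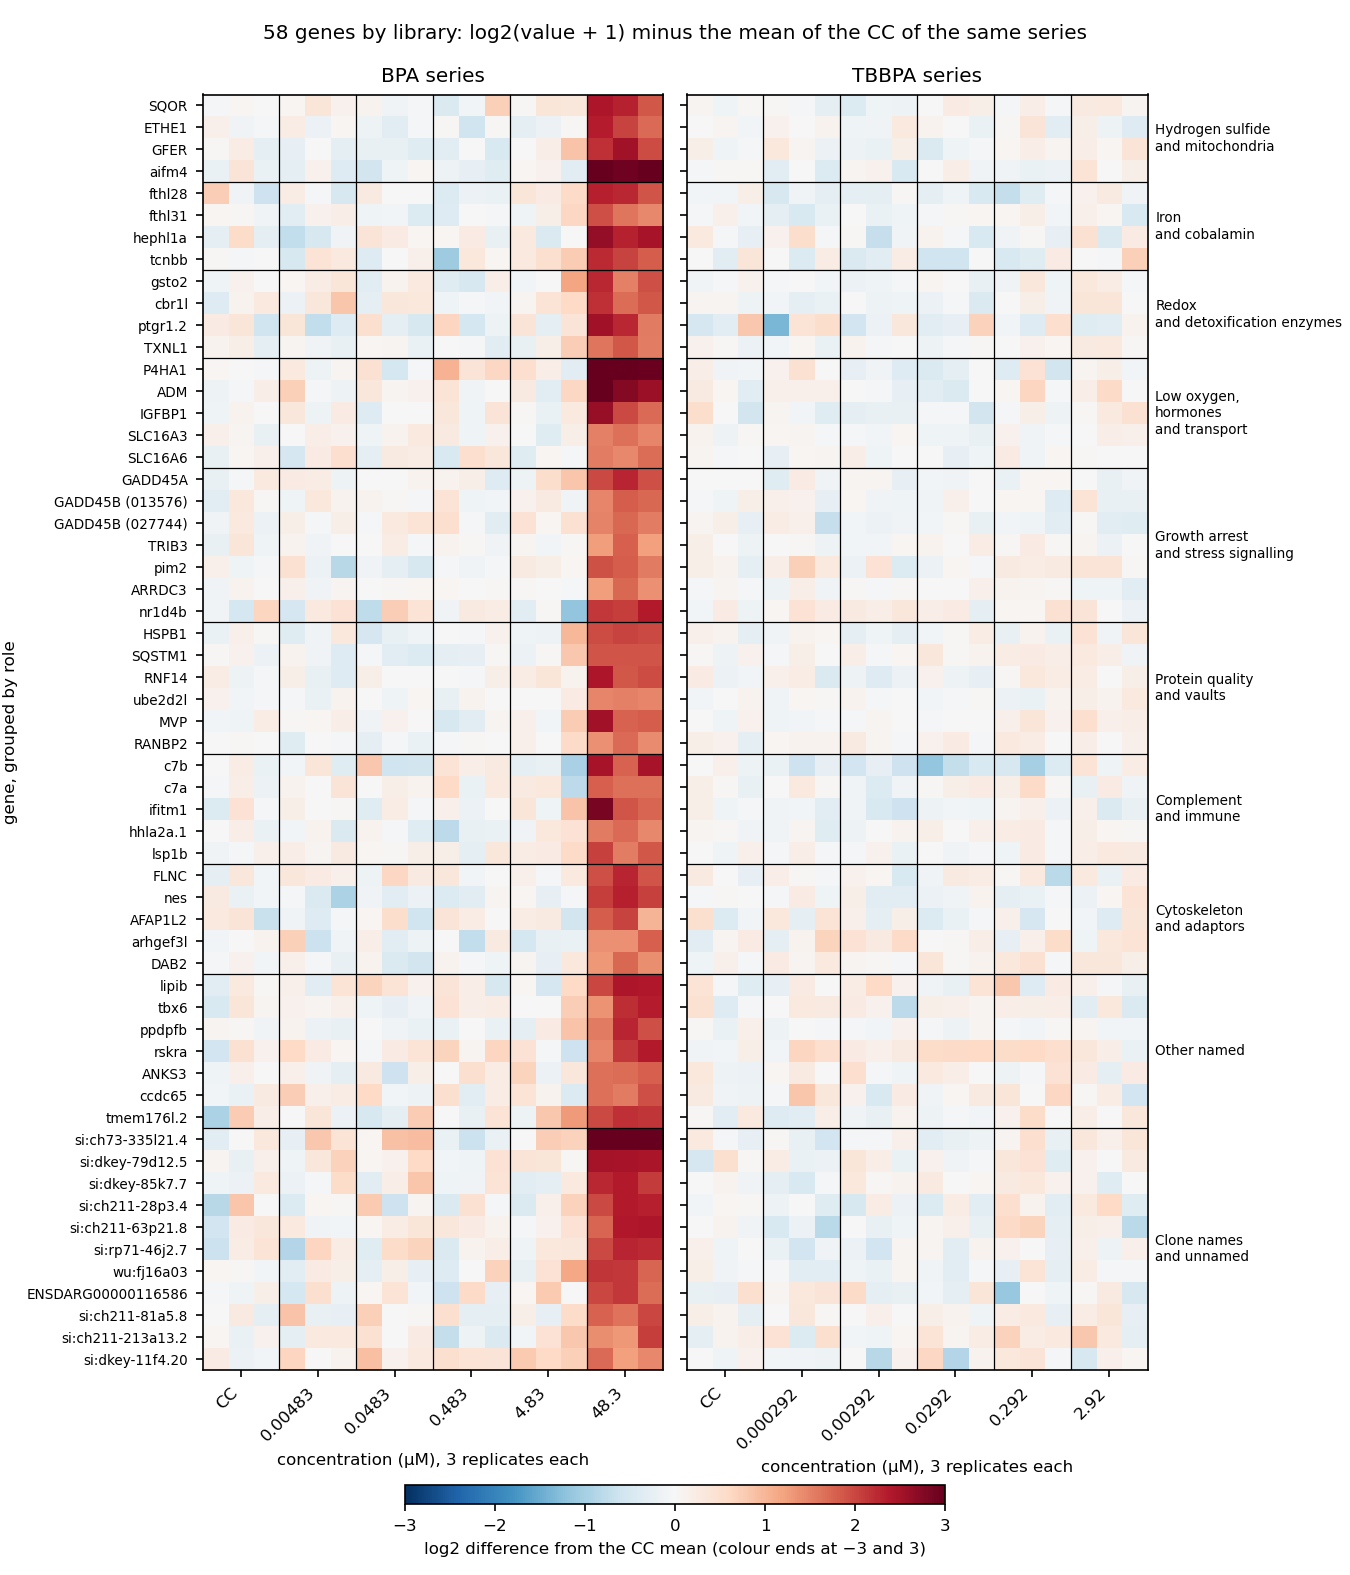
Heat map of the 58 genes (rows, grouped by role) in the 18 libraries of each chemical (columns, by concentration in µM), coloured by the log2 difference from the mean of the CC of the same series. The 3 columns at 48.3 µM BPA are red in all 58 rows, and the 3 columns at 2.92 µM TBBPA stay close to white.

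Genes of hydrogen sulfide oxidation and mitochondrial redox chemistry formed a first group of 4, with mean changes from 4.09-fold to 7.98-fold. The grouping by role was made after the values had been seen and only orders the description. SQOR (ENSDARG00000017034), the mitochondrial enzyme that takes the first step of hydrogen sulfide oxidation, had normalized counts of 503, 468 and 341 at 48.3 µM BPA, against 88.7, 96.4 and 94.01 in the CC. In the 12 libraries of the lower concentrations its values ran from 68.2 to 154 with a median of 98.2, so that the highest concentration stood apart from every other library. In the TBBPA series SQOR had 156, 159 and 136 at 2.92 µM, against 137, 118 and 133 in the CC. ETHE1 (ENSDARG00000005713), the persulfide dioxygenase that acts on the product of SQOR, had 494, 390.1 and 313 at 48.3 µM BPA, against 106, 87.9 and 92.8 in the CC. The changes of this pair of enzymes were 4.60-fold and 4.09-fold, and in both genes the value of replicate 3 at 48.3 µM was the lowest of the 3. GFER (ENSDARG00000070061), a sulfhydryl oxidase that reoxidizes the import machinery of the intermembrane space, had 236, 296 and 201 at 48.3 µM BPA, against 52.1, 59.8 and 42.2 in the CC. At 4.83 µM its values were 51.1, 58.2 and 93.3, so that replicate 3 lay above the other 14 libraries under 48.3 µM. aifm4 (ENSDARG00000061634), a gene of the apoptosis-inducing factor family of flavoproteins, had the smallest spread of the group at the highest concentration, with 173, 167 and 187 at 48.3 µM BPA, against 18.3, 28.1 and 18.4 in the CC. Its values at the lower BPA concentrations ran from 14.03 to 23.1, and with TBBPA they were 38.4, 28.8 and 32.3 at 2.92 µM, against 27.3, 29.4 and 29.1 in the CC.

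Iron and cobalamin handling was represented by 4 genes that changed from 3.15-fold to 5.53-fold. hephl1a (ENSDARG00000059231), which encodes a copper ferroxidase of the hephaestin family, had 142, 114 and 127 at 48.3 µM BPA, against 18.3, 32.9 and 17.97 in the CC. The ferritin heavy chain-like genes fthl28 (ENSDARG00000076221) and fthl31 (ENSDARG00000094210) store iron as subunits of the ferritin shell. fthl28 had 408, 391 and 299 at 48.3 µM BPA, against 135, 74.4 and 51.8 in the CC, where the spread was wide. fthl31 had 297, 235 and 211 at 48.3 µM BPA, against 81.03, 79.3 and 71.4 in the CC. These are similar copies that lie 2 genes apart in the reference table, and their reads can be divided between them in counting. tcnbb (ENSDARG00000091996), a transcobalamin that binds vitamin B12, had 1218, 1050.04 and 905 at 48.3 µM BPA, against 263, 248 and 258 in the CC. It was also the gene of the 58 with the smallest unadjusted p-value at 4.83 µM, where it had 317, 360.04 and 434. Its TBBPA values were 468, 446 and 761 at 2.92 µM, against 458, 363 and 598 in the CC, and these groups overlapped.

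Among enzymes of redox chemistry and detoxification, 4 genes changed from 3.18-fold to 4.31-fold. gsto2 (ENSDARG00000033285), an omega-class glutathione transferase, had 361, 215 and 287 at 48.3 µM BPA, against 68.5, 81.8 and 73.5 in the CC, and in replicate 3 at 4.83 µM it had 171. cbr1l (ENSDARG00000021149), a carbonyl reductase, had 457, 322 and 368 at 48.3 µM BPA, against 76.2, 107 and 122 in the CC. ptgr1.2 (ENSDARG00000087017), a prostaglandin reductase, had 227, 189 and 117 at 48.3 µM BPA, against 46.3, 50.03 and 25.5 in the CC, and replicate 3 was the lowest in both groups. TXNL1 (ENSDARG00000011921), a thioredoxin-like protein found with the proteasome, was among the 3 genes with the highest CC values. It had 2769.9, 3315 and 2672 at 48.3 µM BPA, against 984, 1033 and 752 in the CC, and the value of 1527 in replicate 3 at 4.83 µM was higher than in any CC library.

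Low oxygen, hormone signals and monocarboxylate transport joined 5 genes with changes from 2.91-fold to 9.48-fold. P4HA1 (ENSDARG00000071082), the catalytic subunit of collagen prolyl 4-hydroxylase and a known target of Hif, had the second largest change of the 58 genes. Its normalized counts were 297, 285 and 216 at 48.3 µM BPA, against 27.98, 26.8 and 25.9 in the CC. At the lower concentrations P4HA1 ran from 18.2 to 56.6, with its highest value at 0.483 µM, and all of them lay below the values at 48.3 µM. ADM (ENSDARG00000015263), which encodes the vasodilator peptide adrenomedullin, had 428, 338 and 296 at 48.3 µM BPA, against 44.4, 47.6 and 56.8 in the CC. A second gene with the symbol ADM (ENSDARG00000069027) missed 2 limits of the selection. Its CC mean was 16.2 and its log2 change at 2.92 µM TBBPA was −0.60, and it is described with the hypoxia list. IGFBP1 (ENSDARG00000099351), which binds insulin-like growth factors and in zebrafish restrains growth in low oxygen, had 1009, 654 and 538 at 48.3 µM BPA, against 151, 177 and 166 in the CC. Its TBBPA values spread widely, with 362, 433 and 486 at 2.92 µM, against 517, 359 and 242 in the CC, and these groups overlapped. SLC16A3 (ENSDARG00000045051), the lactate exporter of glycolytic cells, had 733, 815 and 706 at 48.3 µM BPA, against 286, 271 and 219 in the CC. SLC16A6 (ENSDARG00000060246), another monocarboxylate transporter, had 382, 362 and 422 at 48.3 µM BPA, against 114, 138 and 147 in the CC.

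**Figure D2:**
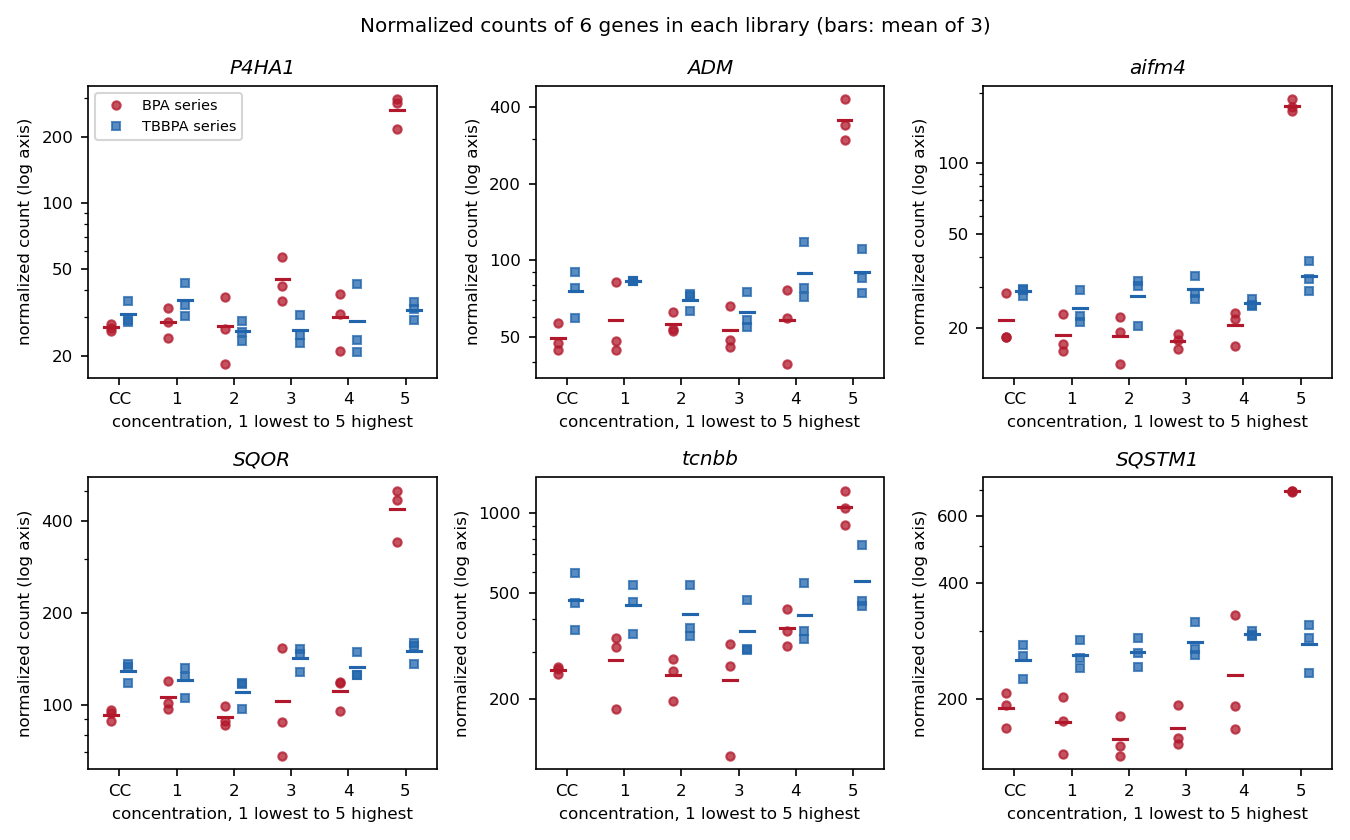
Normalized counts (log axes) of P4HA1, ADM (ENSDARG00000015263), aifm4, SQOR, tcnbb and SQSTM1 in each library, by concentration from the CC to the highest dose, with red circles for BPA and blue squares for TBBPA and bars for the mean of 3. In each panel the 3 red points at the highest concentration lie above every other red point, while blue points at the highest concentration overlap or adjoin their CC.

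Growth arrest and stress signalling held 7 genes, with changes from 2.68-fold to 4.56-fold. The Gadd45 genes, whose products act in growth arrest and DNA repair, were 3 of them. GADD45A (ENSDARG00000043581) had 83.6, 104 and 81.1 at 48.3 µM BPA, against 17.4, 19.5 and 25.5 in the CC, the lowest CC mean of the 58 genes. Of the genes named GADD45B, ENSDARG00000027744 had 992, 1158 and 1026 at 48.3 µM BPA, against 327, 429 and 310.02 in the CC. The other GADD45B, ENSDARG00000013576, had 163, 209 and 196 at 48.3 µM BPA, against 46.3, 73.2 and 59.7 in the CC. TRIB3 (ENSDARG00000016200), a pseudokinase induced by Atf4, had the smallest change of the 58 genes, with 444, 640.2 and 431 at 48.3 µM BPA, against 158, 237 and 168 in the CC. pim2 (ENSDARG00000059001), a serine/threonine kinase transcribed downstream of Stat proteins, had 214, 202 and 168 at 48.3 µM BPA, against 62.7, 51.2 and 55.2 in the CC. ARRDC3 (ENSDARG00000052690), an arrestin-domain adaptor of receptor endocytosis, had 2363, 3253 and 2573 at 48.3 µM BPA, against 929, 1074 and 978 in the CC. With TBBPA its values were 1811, 1809.9 and 1591 at 2.92 µM, against 1928, 2100.4 and 1905 in the CC, and all 3 lay below the CC. nr1d4b (ENSDARG00000059370), a nuclear receptor of the Rev-erb family, had 175, 168 and 209 at 48.3 µM BPA, against 36.7, 26.8 and 61.8 in the CC. At 4.83 µM nr1d4b had 31.03, 40.1 and 16.7, and its replicate 3 was the lowest of the 15 libraries under 48.3 µM.

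Protein quality control was represented by 6 genes that changed from 2.80-fold to 4.23-fold. SQSTM1 (ENSDARG00000075014), the ubiquitin-binding autophagy receptor p62, had nearly identical values of 694, 698 and 696 at 48.3 µM BPA, against 193, 206 and 167 in the CC. HSPB1 (ENSDARG00000041065), a small heat shock protein, had 523, 551 and 534 at 48.3 µM BPA, against 118, 150.1 and 139 in the CC. In replicate 3 at 4.83 µM, SQSTM1 had 331 and HSPB1 had 269, both above the other 14 libraries under 48.3 µM. MVP (ENSDARG00000021242), the major protein of vault particles, had 735, 436 and 451 at 48.3 µM BPA, against 121, 116 and 147 in the CC. Of the 58 genes it came closest to the TBBPA limit, with 356, 282 and 292 at 2.92 µM TBBPA, against 254, 229.6 and 277 in the CC. RNF14 (ENSDARG00000078683), an E3 ubiquitin ligase, had 150.00, 102 and 109 at 48.3 µM BPA, against 31.8, 24.4 and 25.9 in the CC. ube2d2l (ENSDARG00000099749), a ubiquitin-conjugating enzyme, had 728, 744 and 727 at 48.3 µM BPA, against 287, 248 and 251 in the CC, a small spread in both groups. RANBP2 (ENSDARG00000093125), a protein of the nuclear pore with SUMO ligase activity, had 847, 1059.95 and 874 at 48.3 µM BPA, against 321, 333 and 320.5 in the CC. In this group, 5 of 6 genes had replicate 3 at 4.83 µM above the other 14 libraries under 48.3 µM, as had 26.0% of all genes tested. This was the highest share among the groups by role, and in the low oxygen group it was 0 of 5. The count rests on 1 library and on groups made after the values had been seen, and nothing is read from it.

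Immune genes numbered 5, with changes from 2.96-fold to 4.72-fold. Complement C7, part of the membrane attack complex, is encoded by c7a (ENSDARG00000042172) and c7b (ENSDARG00000057121). c7b had 161, 97.8 and 161 at 48.3 µM BPA, against 27.98, 32.9 and 24.2 in the CC, and c7a had 105, 94.1 and 95.5 at 48.3 µM BPA, against 28.9, 34.2 and 25.9 in the CC. In replicate 3 at 4.83 µM, c7b had 13.9 and c7a had 16.7, in both genes the lowest of the 15 libraries under 48.3 µM. ifitm1 (ENSDARG00000093303), an interferon-induced transmembrane protein, had 362, 183 and 166 at 48.3 µM BPA, against 36.7, 67.1 and 48.05 in the CC, with replicate 1 apart from the other two. The remaining immune genes were lsp1b (ENSDARG00000099385), an actin-binding protein of leukocytes, and hhla2a.1 (ENSDARG00000043182), of the B7 family, with changes of 3.51-fold and 2.96-fold.

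Cytoskeleton and adaptor genes numbered 5 and changed from 2.77-fold to 4.45-fold. nes (ENSDARG00000088805), the intermediate filament protein of neural progenitors, had 275, 329 and 270.2 at 48.3 µM BPA, against 78.1, 56.1 and 61.00 in the CC. FLNC (ENSDARG00000018566), the actin crosslinker of muscle, had 343, 445 and 337 at 48.3 µM BPA, against 74.3, 115 and 84.8 in the CC. The changes of AFAP1L2 (ENSDARG00000074806), an actin-filament-associated adaptor, of arhgef3l (ENSDARG00000037554), a gene named as a guanine nucleotide exchange factor, and of DAB2 (ENSDARG00000053091), an endocytic adaptor, were 3.08-fold, 2.84-fold and 2.77-fold. AFAP1L2 had a low replicate 3 in both groups, with 185, 212 and 105 at 48.3 µM BPA, against 62.7, 67.1 and 32.2 in the CC.

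The other 7 genes with a gene name changed from 3.28-fold to 4.86-fold. ppdpfb (ENSDARG00000031317), named for pancreatic progenitor differentiation, was the most abundant of the 58, with 13989, 23349.9 and 18103 at 48.3 µM BPA, against 5028, 4872 and 4401 in the CC. In the TBBPA series it had 3519.8, 3125 and 3140.5 at 2.92 µM, against 3394, 2913 and 3696 in the CC, which overlapped. lipib (ENSDARG00000005332), a lipase, had 131, 176 and 172 at 48.3 µM BPA, against 25.1, 39.05 and 32.6 in the CC. tbx6 (ENSDARG00000011785), a T-box transcription factor of the presomitic mesoderm, had 199, 368 and 407 at 48.3 µM BPA, against 56.9, 101 and 83.1 in the CC, with replicate 1 lowest in both groups. tmem176l.2 (ENSDARG00000089399), a transmembrane protein, and rskra (ENSDARG00000087176), a gene named as a ribosomal S6 kinase-related kinase, changed by 4.32-fold and 3.96-fold. ANKS3 (ENSDARG00000038557), an ankyrin repeat protein, changed by 3.28-fold, and ccdc65 (ENSDARG00000032005), a gene of motile cilia, by 3.28-fold.

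A further 11 genes have only a clone name or an identifier, and they held the largest change of all. si:ch73-335l21.4 (ENSDARG00000091234) had 429, 519 and 490.02 at 48.3 µM BPA, against 18.3, 23.2 and 28.8 in the CC, a change of 19.9-fold. Its values at the lower BPA concentrations ran from 14.4 to 44.4, and with TBBPA they were 59.07, 51.2 and 59.3 at 2.92 µM, against 57.1, 44.6 and 38.5 in the CC. si:dkey-79d12.5 (ENSDARG00000040284) had 150.00, 147 and 144 at 48.3 µM BPA, against 27.01, 21.96 and 28.4 in the CC, a narrow spread in both groups. si:dkey-85k7.7 (ENSDARG00000101135) had 1430.2, 1554 and 1275 at 48.3 µM BPA, against 274, 265 and 366 in the CC. In si:ch211-28p3.4 (ENSDARG00000091009), si:ch211-63p21.8 (ENSDARG00000105443) and si:rp71-46j2.7 (ENSDARG00000105424), with changes of 4.70-fold, 4.57-fold and 4.47-fold, replicate 1 was the lowest both at 48.3 µM and in the CC. The other 5 of these genes changed from 2.75-fold to 4.02-fold.

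Members near the limits of the selection differed little from genes that missed it. The smallest changes in any pair were 2.51-fold for si:ch211-213a13.2, 2.53-fold for ube2d2l and 2.53-fold for DAB2, and just outside lay si:ch211-220m17.5 with 2.49-fold, VILL with 2.48-fold and VEGFA with 2.47-fold. The lowest CC means inside were 20.8 for GADD45A, 21.3 for si:ch211-213a13.2 and 21.6 for aifm4, and the highest outside were 18.3 for clmnb, 15.8 for gcga and 14.2 for OCIAD2. Toward the TBBPA limit, MVP and si:ch73-335l21.4 with 0.285 and DAB2 with 0.282 were inside on the log2 scale, and hbegfa with 0.305, CTSB with 0.305 and snap23.2 with 0.312 were outside. Setting the limit of each pair at 2-fold gave 124 genes, which include the 58, and 3-fold gave 30. Requiring 2.5-fold in all 9 pairings of a 48.3 µM library with a CC library left 38 of the 58. Leaving out a replicate changed the set more than its size: 76 genes passed without replicate 1, of which 50 were among the 58, 82 without replicate 2, of which 45 were, and 68 without replicate 3, of which 47 were.

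Within the 48.3 µM group, the coefficient of variation of the 58 genes ran from 0.281% for SQSTM1 to 45.9% for ifitm1, with a median of 15.6%. The highest of the 3 values was in replicate 1 for 22 genes, in replicate 2 for 25 and in replicate 3 for 11. The library medians of the log2 change of the 58 genes were 1.97, 2.00 and 1.88 in replicates 1, 2 and 3. The median over all genes tested was −0.0132, −0.00935 and −0.0044. Since the selection required a rise of at least 2.5-fold in each pair, nothing is read from the likeness of the 3 libraries or from their distance to all genes.

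How far down the dilution series the genes were raised was asked next. The median log2 difference of the 58 genes from the CC was 0.05 at 0.00483 µM, 0.03 at 0.0483 µM, 0.02 at 0.483 µM, 0.18 at 4.83 µM and 1.98 at 48.3 µM. All 58 genes lay within 1.5-fold of the CC at 0.00483 µM, 57 at 0.0483 µM, 57 at 0.483 µM and 56 at 4.83 µM. The exceptions, all above the CC, were si:ch73-335l21.4 at 0.0483 µM with a log2 difference of 0.62, P4HA1 at 0.483 µM with 0.68, and at 4.83 µM tmem176l.2 with 0.65 and si:dkey-11f4.20 with 0.70. The selection also used the CC libraries and can favour genes with low values in them, so these differences from the CC are descriptions only. At 4.83 µM, 44 of the 58 genes lay above the CC, while the median over all genes tested was −0.02. The share of all genes above the CC was not counted. The library medians there were 0.05, 0.08 and 0.37 in replicates 1, 2 and 3, so that most of the difference came from replicate 3.

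**Figure D3:**
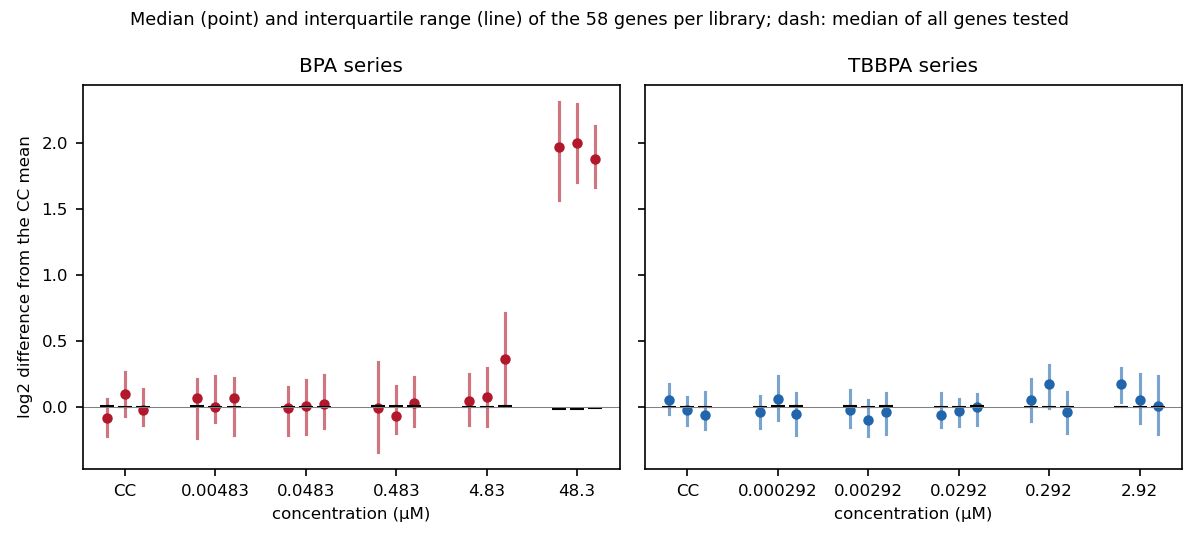
Median (point) and interquartile range (line) of the log2 difference of the 58 genes from the CC mean, for each library by concentration in µM, with a dash for the median of all genes tested. The BPA libraries stay between −0.08 and 0.10 up to 0.483 µM, replicate 3 at 4.83 µM lies at 0.37, and the 48.3 µM libraries lie at 1.88 to 2.00, while the TBBPA libraries stay between −0.10 and 0.18.

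The comparison of 4.83 µM BPA with the mean of the 3 lower concentrations uses neither the 48.3 µM nor the CC libraries and is therefore independent of the selection. With limma, 0 of the 58 genes were called, and over all 17140 genes tested 0 were called (0% of them). Of all genes tested, 2391 (13.95%) had an unadjusted p-value under 0.05. In all, 41 of the 58 genes were higher at 4.83 µM, where the share of all genes that were higher was not counted. The median difference of the 58 was 0.17 on the log2 scale, against −0.02 over all genes tested. At an unadjusted p-value under 0.05, 7 of the 58 were higher and 0 lower with limma, 11 and 0 with edgeR, and 8 and 0 with DESeq2, and none of these tools called any of the 58. Over all genes, edgeR called 0 genes, with 2057 at an unadjusted p-value under 0.05, and DESeq2 called 1, with 1456. The 7 genes were tcnbb, RANBP2, fthl28, GFER, hhla2a.1, wu:fj16a03 and MVP. The largest difference among them was that of tcnbb, at 0.60 with a 95% interval from 0.24 to 0.95 (adjusted p = 0.340 with limma and BH adjustment). Over the alternatives, the lowest adjusted p-value of any of the 58 genes ran from 0.176 to 0.440. The 95% interval spanned 0 in 51 of the 58 genes.

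The same intervals bound, gene by gene, what a rise at 4.83 µM over the 3 lower concentrations could have been. They do not bound a rise over the CC, and no joint limit for the 58 genes was computed. In all 58 genes the upper limit lay under a 2.5-fold rise, the size that the selection required at 48.3 µM over the CC. It lay under 2-fold in 56 genes and under 1.5-fold in 30, and the highest upper limit was 1.26 on the log2 scale, for tmem176l.2. The intervals reached a median of 0.43 to either side of the difference.

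Replicate 3 at 4.83 µM BPA stood apart from the other libraries under 48.3 µM. It was above the other 14 in 21 of the 58 genes, where 26.0% of all genes tested were, and below them in 5, where 30.7% were. The 21 genes include GFER, MVP, tcnbb, HSPB1, SQSTM1, gsto2, TXNL1 and ppdpfb, and the 5 are c7b, nr1d4b, rskra, ccdc65 and c7a. Without this library, the median difference of the 58 genes at 4.83 µM fell to 0.09, with 36 genes higher. At an unadjusted p-value under 0.05 tcnbb was then higher and si:ch211-81a5.8 lower, and limma called neither. For tcnbb the difference was 0.60 with and 0.60 without it, so that this gene did not rest on that library, while for GFER it was 0.59 with and 0.27 without, and for SQSTM1 0.41 and 0.09. Over all genes, 5 were called without it, none of them among the 58. The summed level of the skeletal muscle markers was 229104 in this library, against 118434 to 197076 in the CC, and that of the liver markers was 11714, against 5113 to 6312 in the CC. The sums of the photoreceptor markers (50329 in this library, against 27122 to 43602 in the CC), the epidermis markers (97850.02, against 46841 to 86762 in the CC) and the erythrocyte markers (649, against 309.7 to 633 in the CC) were also above the CC range. That of the neuron markers was below it, at 28466, against 30469.8 to 38071 in the CC, and the sums of the other 4 marker sets lay within the CC range. The part of these tissues in its values was not tested.

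**Figure D4:**
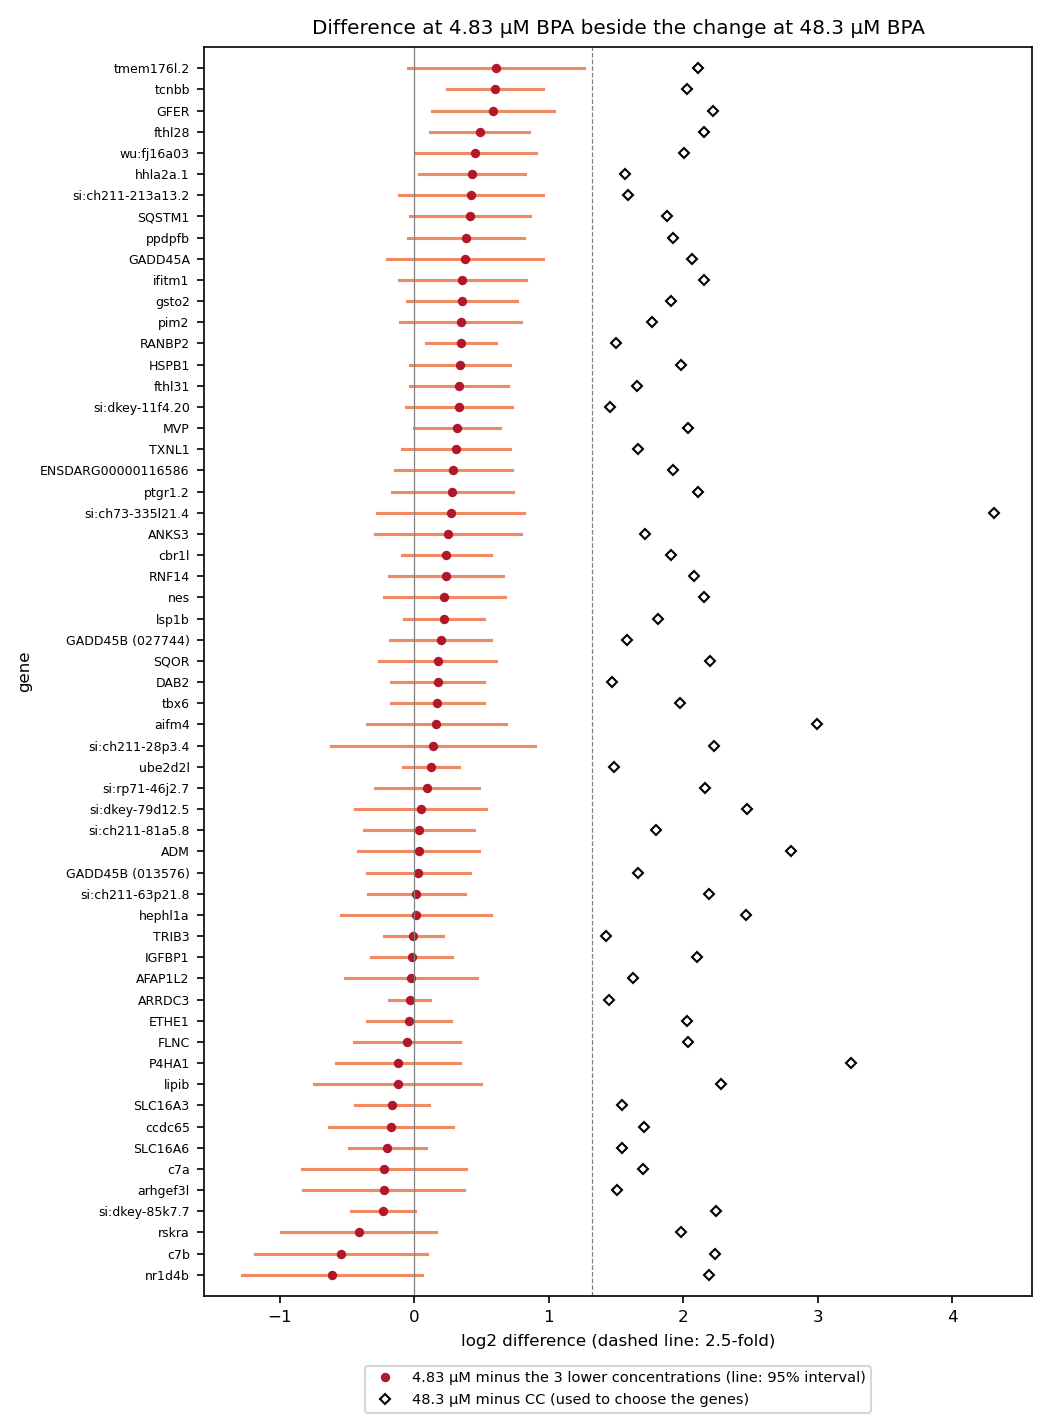
Log2 difference at 4.83 µM BPA from the mean of the 3 lower concentrations (red points with 95% intervals) and log2 change at 48.3 µM BPA from the CC (open diamonds) for each of the 58 genes. All 58 intervals end left of the dashed line at 2.5-fold, and 51 of them span 0.

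In the TBBPA series, the medians of the 58 genes were −0.02 at 0.000292 µM, −0.05 at 0.00292 µM, −0.03 at 0.0292 µM, 0.07 at 0.292 µM and 0.11 at 2.92 µM. All 58 genes lay within 1.5-fold of the CC at 0.000292 and 0.00292 µM, and 57 did at 0.0292 and at 0.292 µM. The exception at both was c7b, below the CC with log2 differences of −0.77 and −0.63. At 2.92 µM the selection confined every gene to a mean change under 0.3, and within that limit 39 of the 58 lay above the CC. The library medians there were 0.18, 0.06 and 0.01, against 0.05, −0.02 and −0.06 in the CC libraries, in the order of replicates 1, 2 and 3. The ranges of both groups overlapped, while within each of the 3 replicates the 2.92 µM library had the higher median. The selection used these same libraries, and its TBBPA limit removed 47 genes on the higher side and 1 on the lower. The share of all genes above the CC at 2.92 µM was not counted, and nothing is read from the 39 genes or from these medians. The comparison of 0.292 µM TBBPA with the 3 lower concentrations is independent of the selection. In it 0 of the 58 genes and 0 of 18362 genes (0%) were called by limma, edgeR or DESeq2. At an unadjusted p-value under 0.05 there were 973 genes (5.30%) with limma, 1049 (5.71%) with edgeR and 307 (1.67%) with DESeq2. Among the 58 genes, 42 were higher at 0.292 µM, with a median difference of 0.11, against −0.0015 over all genes tested. The share of all genes that were higher was not counted. Of the 58, 6 were higher at an unadjusted p-value under 0.05 with limma, 10 with edgeR and 3 with DESeq2. These 6 were MVP, si:ch211-63p21.8, si:dkey-85k7.7, tmem176l.2, IGFBP1 and RNF14. The difference of MVP was 0.24 on the log2 scale (adjusted p = 0.891 with limma and BH adjustment), and the lowest adjusted p-value of any of the 58 genes over the alternatives ran from 0.485 to 1.0. In 58 of 58 genes the upper limit of the 95% interval lay under 2-fold, and in 49 under 1.5-fold.

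Other genes were followed in 16 lists of stress, signalling and metabolic programs, which were drawn up with earlier results of these data known. Most of the 58 genes are on none of these lists. Of those that are, TRIB3 is on the amino acid list, and gsto2 and SQSTM1 are on the Nrf2 list. HSPB1 is on the chaperone list and pim2 on the list of JAK-STAT feedback and acute phase genes. P4HA1, ADM and SLC16A3 are on the hypoxia list, the 3 Gadd45 genes on the p53 list, IGFBP1 on the fasting list, and SQSTM1 also on the autophagy list. All counts below leave the 58 genes out and are to be read beside the 7.07% of all genes called higher and 6.93% called lower at 48.3 µM BPA.

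The amino acid list holds Atf4 targets and aminoacyl-tRNA synthetases, which were not counted apart. It showed the largest share of higher genes, with 22 of 37 called higher and 1 lower. Its median log2 change was 0.78, against −0.02 over all genes tested. sesn2 (ENSDARG00000070012), which restrains mTORC1 when leucine is short, rose to 172 ± 24.8 at 48.3 µM BPA, against 38.0 ± 10.4 in the CC (SD, n = 3; log2 change 2.17, adjusted p = 0.000111 with limma). PSAT1 (ENSDARG00000016733), an enzyme of serine synthesis, rose to 379.6 ± 45.9 at 48.3 µM BPA, against 103 ± 27.6 in the CC (SD, n = 3; log2 change 1.90), and was also called at 2.92 µM TBBPA, with a log2 change of 0.59. slc3a2a (ENSDARG00000036427), a chain of the amino acid exchanger, was the gene called lower, with a log2 change of −0.64 and a call that was lost in 2 of 9 alternatives. Of 33 genes of the ER chaperone list, 14 were called higher (median 0.64). The oxidase ERO1A (ENSDARG00000015228) and the chaperone HSPA5 (ENSDARG00000103846), the BiP protein, rose by 2.28 and 1.46 on the log2 scale, and the level of HSPA5 was 3481 ± 233 at 48.3 µM BPA, against 1265 ± 94.7 in the CC (SD, n = 3). The call of ERO1A was lost when replicate 2 was left out. Among 40 proteasome genes, 11 were called higher (median 0.48, with 39 of 40 higher), led by PSME4 (ENSDARG00000087911) and PSMD11 (ENSDARG00000005134) at 1.14 and 1.06. The call of PSME4 was lost in 3 of 9 alternatives. Without replicate 1 the proteasome count was 4, and it was 5 without replicate 2 or replicate 3.

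The lists that hold HSPB1, gsto2 and SQSTM1 were examined in the same way. Of 27 cytosolic chaperone genes, 8 were called higher and 1 lower (median 0.26). The inducible Hsp70 genes hsp70.3 (ENSDARG00000021924) and hsp70.1 (ENSDARG00000029688), which are near copies whose reads may be shared, had log2 changes of 4.58 and 4.37. The gene hsp70.1 had 590.7 ± 109 at 48.3 µM BPA, against 27.9 ± 6.92 in the CC (SD, n = 3; adjusted p = 2.76e-06 with limma), while HSF2 (ENSDARG00000053097), a heat shock factor, had a log2 change of −0.64, a call lost without replicate 2. When replicate 1 was left out 3 chaperone genes were called higher, when replicate 2 was left out 4, and when replicate 3 was left out 5. Identifiers named in the selection were meant to be kept off the Nrf2 list, though prdx1 is on it. Its counts are therefore not those of all Nrf2 targets. Of 30 Nrf2 targets on this list, 8 were called higher (median 0.52), and 2 of 30 were called higher without replicate 1. The highest were prdx1 (ENSDARG00000058734), the peroxiredoxin removed from the 58 by its identifier, at 3.54, and UGDH (ENSDARG00000019838), which makes UDP-glucuronate, at 1.71, a call lost when replicate 1 was left out. Of 34 enzymes and transporters of phases I and II, 8 were called higher and 4 lower (median 0.04), and 3 were higher without replicate 1. The genes called lower were 7 without replicate 1 and 1 without replicate 2 or replicate 3. The highest were cyp1c2 (ENSDARG00000101789), a cytochrome P450, at 1.72 and UGT1A1 (ENSDARG00000006220), a glucuronosyltransferase, at 1.71, and the lowest was cyp2p6 (ENSDARG00000042978) at −1.56. The call of cyp1c2 was lost in 3 of 9 alternatives.

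On the hypoxia list, 12 of 37 other genes were called higher and 2 lower, with a median of 0.13. Leaving out replicate 1 gave 7 higher and 1 lower, and leaving out replicate 2 gave 1 lower. The lower ones were 5 when replicate 3 was left out, and 4 when only replicate 3 at 4.83 µM was. EGLN3 (ENSDARG00000032553), the prolyl hydroxylase that marks Hif for degradation, rose to 263 ± 138 at 48.3 µM BPA, against 10.6 ± 2.61 in the CC (SD, n = 3; log2 change 4.42, adjusted p = 2.59e-05 with limma). The second ADM gene (ENSDARG00000069027) rose to 97.9 ± 8.07 at 48.3 µM BPA, against 16.2 ± 7.15 in the CC (SD, n = 3; log2 change 2.60), a call lost when replicate 1 was left out. PFKFB4 (ENSDARG00000029075), a regulator of glycolysis, fell to 340.8 ± 65.8 at 48.3 µM BPA, against 604.7 ± 96.7 in the CC (SD, n = 3; log2 change −0.83). The p53 list had 10 of 28 called higher and 1 lower (median 0.42). casp8 (ENSDARG00000058325), a protease of apoptosis, had a log2 change of 1.48, a call lost without replicate 1. RRM2B (ENSDARG00000033367), a ribonucleotide reductase subunit and the gene called lower, had −0.80, a call lost without replicate 1 or replicate 2. Of 25 genes on the list of JAK-STAT feedback and acute phase genes, which were not counted apart, 4 were called higher (median 0.68). Without replicate 3 at 4.83 µM, 8 were higher. Both genes named SOCS3, feedback inhibitors of cytokine signals, rose, with log2 changes of 3.25 (ENSDARG00000026611) and 3.18 (ENSDARG00000025428). The gene ENSDARG00000026611 was also called at 2.92 µM TBBPA, with a log2 change of 0.59.

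Of 31 matrix and repair genes, 11 were called higher and 3 lower (median 0.32), and the higher ones were 4 without replicate 1, 5 without replicate 2 and 6 without replicate 3. TIMP2 (ENSDARG00000075261), an inhibitor of matrix metalloproteases, rose to 818 ± 76.9 at 48.3 µM BPA, against 44.0 ± 9.49 in the CC (SD, n = 3; log2 change 4.21). MMP9 (ENSDARG00000042816), a matrix metalloprotease, rose by 3.72 on the log2 scale and was also called at 2.92 µM TBBPA, where it rose by 1.56, and mmp30 (ENSDARG00000045887) had a log2 change of −1.60. Of 36 immediate-early genes, 6 were called higher and 7 lower (median 0.08), and the lower ones were 4 without replicate 1 and 3 without replicate 2. The AP-1 genes FOSL1 (ENSDARG00000015355) and JUNB (ENSDARG00000074378) had log2 changes of 4.89 and 1.82, while fosaa (ENSDARG00000040135) had −1.70, a call lost in 2 of 9 alternatives. Of 27 autophagy and lysosome genes, 4 were called higher and 3 lower (median 0.04), and without replicate 1 these counts were 2 and 1. The cathepsin genes CTSB (ENSDARG00000055120) and ctsla (ENSDARG00000007836) had log2 changes of 1.61 and 1.06, and ULK2 (ENSDARG00000097205), a kinase that starts autophagy, −0.72.

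Metabolic and hormone lists came last. Of 25 glucocorticoid and fasting genes, 2 were called higher and 4 lower (median −0.17). igfbp1b (ENSDARG00000038666), the sister copy of IGFBP1, had a log2 change of 1.33 and the kinase sgk1 (ENSDARG00000025522) 0.73, against −1.75 for the transaminase AGXT (ENSDARG00000052099), and without replicate 2 the counts were 1 higher and 1 lower, with the calls of sgk1 and AGXT lost. Both higher calls were lost without replicate 1. Of 29 genes of fatty acid metabolism, 1 was called higher and 4 lower (median −0.06), namely ANGPTL4 (ENSDARG00000035859), an inhibitor of lipoprotein lipase, at 0.71, and at the low end CPT1B (ENSDARG00000058285), of mitochondrial fatty acid import, at −1.46. The lower ones were 1 without replicate 2, and the call of ANGPTL4 was lost without replicate 1 or replicate 2. At 2.92 µM TBBPA the log2 change of ANGPTL4 was 0.53 (adjusted p = 0.0108 with limma), which is under 1.5-fold and no call. Of 23 sterol genes, 1 was called higher, EBP (ENSDARG00000046098), a sterol isomerase, at 1.07, a call lost in 3 of 9 alternatives. Of 17 estrogen-responsive genes in the BPA series, only 5 had a mean of at least 10 and were tested. Of these 5, 1 was called higher, the cathepsin CTSD (ENSDARG00000057698) at 0.71, a call lost in 1 of 9 alternatives, without replicate 1. The other genes of this list were not tested. At 2.92 µM TBBPA, at most 3 genes of a list were called, all of them higher.

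**Figure D5:**
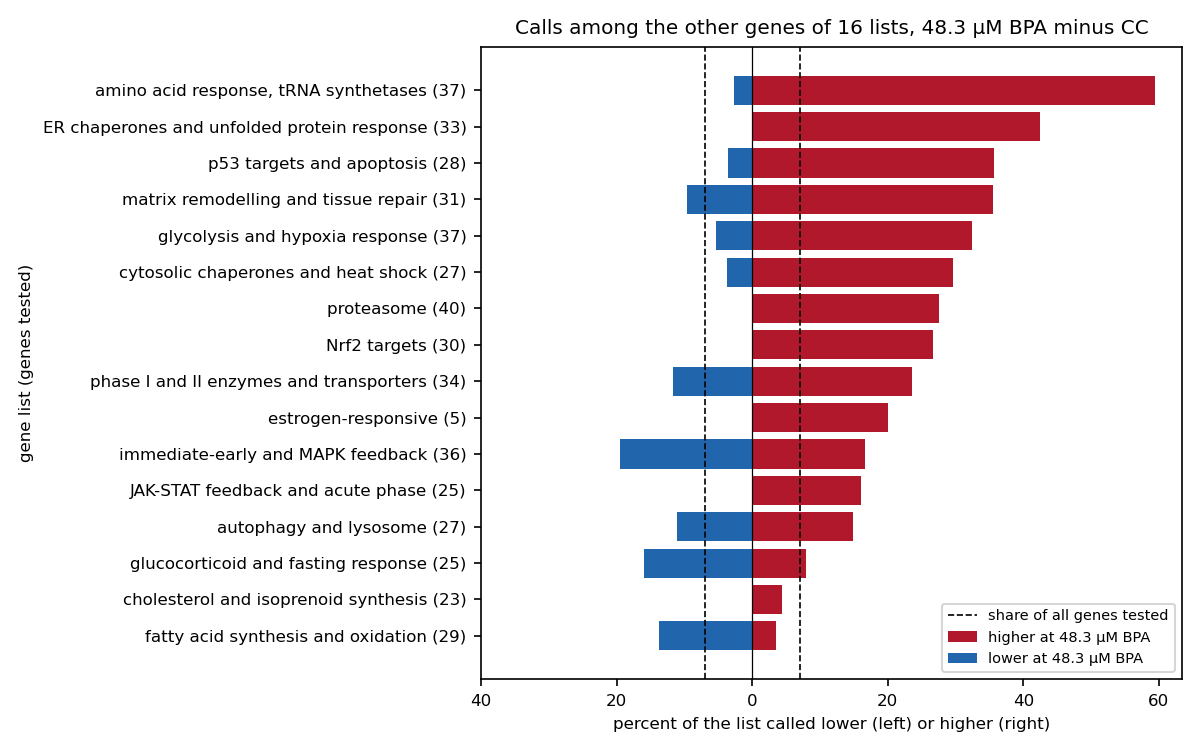
Percent of the other genes of each of 16 lists that were called higher (red, right) or lower (blue, left) at 48.3 µM BPA, with the number of genes tested in parentheses and dashed lines at the 7.07% and 6.93% of all genes called higher and lower. The amino acid list reaches furthest to the right, with 22 of 37 genes, and the immediate-early list furthest to the left, with 7 of 36. Identifiers named in the selection were meant to be kept off the Nrf2 list, though prdx1 is on it.

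Markers of tissues in the larvae also differed at 48.3 µM BPA. Every listed marker found in the BPA table had reads there. Photoreceptor markers were called lower in 6 of 7 genes, and their summed level was 10962 to 16301 at 48.3 µM, against 27122 to 43602 in the CC. Neuron markers were called lower in 3 of 7 (18133 to 24779 at 48.3 µM, against 30469.8 to 38071 in the CC), and skeletal muscle markers in 2 of 6 (125350.5 to 130468 at 48.3 µM, against 118434 to 197076 in the CC). Erythrocyte markers were called higher in 4 of 4 (1276 to 1750.2 at 48.3 µM, against 309.7 to 633 in the CC), and neutrophil and macrophage markers in 1 of 3 (141 to 224 at 48.3 µM, against 72.4 to 113 in the CC). Liver markers were called lower in 1 of 6, and their sums spread widely (1183 to 7923 at 48.3 µM, against 5113 to 6312 in the CC). Intestine markers were called lower in 1 of 9 (1252 to 4375, against 2443 to 5978), and epidermis markers higher in 1 of 5 (67423 to 89786, against 46841 to 86762). No marker was called for exocrine pancreas (542 to 5919, against 739 to 7159) or for cartilage and bone (1763 to 2811, against 2237 to 2969). None of the 58 genes is on a marker list, and the part of tissue composition in their values was not tested.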

How the data were processed

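The 36 libraries comprised 18 for each chemical, in 6 groups of 3. The authors ran cutadapt and then STAR in quant mode against GRCz11, and deposited a signal for each gene and library, the counts divided by the size factors of DESeq2, in a table per chemical. Library totals were recovered as whole reads, which held for 100% of the values (tolerance 0.01). The tables were fitted separately. Gene names came from a reference table that matched 23843 of 25856 genes in the BPA table, and 57 of the 58 genes described.

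Differences were tested with limma 3.58.1 in R 4.3.3 (lmFit, then eBayes with its trend option). The values entered as log2(value + 1), over genes with a mean of at least 10, with a block for the replicate number, which the authors' model also held, and BH adjustment over all genes tested. The comparison at 4.83 µM BPA or 0.292 µM TBBPA used 12 libraries, and that of the highest concentration with the CC used all 18. The replicates came from different clutches in 3 separate repeats, so libraries with the same number were treated as pairs. In the BPA series, deviations from the group means correlated with a median of 0.115 between libraries of the same number and −0.0567 between other libraries, and in the TBBPA series with 0.166 and −0.0790. Between the highest concentration and the CC, pairs 1, 2 and 3 had −0.0436, 0.111 and 0.21 with BPA and 0.169, 0.0856 and 0.213 with TBBPA. Pair 1 of BPA was thus close to the median of libraries with different numbers. All 36 pairs of replicates differed by more than sampling noise (2.95 to 29.0 chi-square units per degree of freedom).

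Alternatives were a pseudocount of 10, no filter, no replicate block, edgeR 4.0.16 and DESeq2 1.42.0 on the recovered reads, leaving out each replicate or replicate 3 at 4.83 µM, and all 18 libraries in the fit. For each comparison, the main limma fit, edgeR and DESeq2 were also run on simulated counts, and the other alternatives were not. The simulated counts had a fixed dispersion and no replicate effect, unlike the data, and nothing is read from them.

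The 58 genes, the 16 lists and the markers were chosen with earlier results of these data known. The members named are the 15 with the largest change, those on a list, the 3 with the highest CC values and those nearest the limits, and others were added by role after their values were seen. For each list, the 2 highest and the 1 lowest of the other genes called at 48.3 µM BPA are named, except 1 gene that is not reported here. Promoter and protein sequences were not analysed here. Figures were drawn with matplotlib 3.10.9.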

Additional observations from a re-analysis of the deposited data

Results flagged for a closer look

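In 6 named genes, all 3 replicate pairs were higher at 48.3 µM BPA and all 3 were lower at 2.92 µM TBBPA, each against its own CC. The TBBPA change was called in none of the 6, with adjusted p from 0.168 to 0.574 (limma, BH adjustment). In ifitm1 the TBBPA change of pair 1 was only −0.012 on the log2 scale. How many genes would show this pattern by sign alone was not worked out. Other genes of the lists that were called higher at 48.3 µM BPA were higher in all 3 TBBPA pairs, and they were not counted. Among them were EGLN3, hsp70.3 and TIMP2, with log2 changes of 0.95, 0.85 and 0.66 at 2.92 µM TBBPA, none of them called there. Several of the 58 genes, such as GFER, SQOR, MVP and TXNL1, were also higher in all 3 TBBPA pairs. They were not counted either, so nothing is read from the opposite signs of the 6 genes. The difference between the chemicals was not tested, and the doses differ. The log2 change with BPA minus that with TBBPA was 3.20 for ADM (ENSDARG00000069027), 1.70 for igfbp1b and 1.35 for PSME4 among the genes of the lists. Among the 58 genes, whose direction with BPA was fixed by their selection, it was 2.32 for ifitm1, 1.81 for GADD45B (ENSDARG00000027744) and 1.64 for ARRDC3 (ENSDARG00000052690). Groups of 3 are too small for a test of single outlying libraries.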

How the results depend on the processing

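The choice of genes moved with its limits: 124 genes passed at 2-fold, 30 at 3-fold, 38 with all 9 pairings and 36 with a CC mean of at least 50, while a pseudocount of 10 gave 51 and leaving out a replicate gave 68 to 82. At 4.83 µM BPA, 1 gene was called with DESeq2, 0 to 3 when a replicate was left out of all groups and 5 without replicate 3 at 4.83 µM alone, and at 0.292 µM TBBPA 0 were called in all 9 alternatives. None of these calls was among the 58 genes. The genes called at 48.3 µM BPA numbered 2414, against 1164 to 2402 when a replicate was left out of all groups and 3562 without replicate 3 at 4.83 µM alone. At 2.92 µM TBBPA 158 were called, against 104 with DESeq2 and 19 to 114 when a replicate was left out. Without the replicate block, 69 were called there, 2307 at 48.3 µM BPA, and 0 in both other comparisons.

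For the lists, leaving out replicate 1 moved 17 of the counts by over 1.5 times, replicate 2 moved 15 and replicate 3 moved 9. Of the genes named from the lists, 12 lost their call without replicate 1, 10 without replicate 2 and 3 without replicate 3. No named gene reversed its direction in an alternative that called it. With 3 replicates per group, the intervals at 4.83 µM BPA were wide, and these limits cover the spread between pools only.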
